A study of Mus musculus with 6 samples.

Results

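The complement genes examined here are C1ra, C1s, C4b, C2, C3, Cfb and Cfd, which encode activating components, and Cd55 and Cd59a, which encode membrane-bound regulators. They were taken by name, whatever their level, from the gene table of an RNA sequencing study of mouse mesenchymal stem cells, and all 9 were found among its 23358 rows. The cells were grown from the marrow of C57BL/6 mice, carry no engineered allele and are adherent progenitors of bone, fat and cartilage cells. They were used at passage 6 to 12, with no passage stated for single libraries. Both groups were left to adhere for 24 h and transfected overnight with a lipid reagent, 1 group with a non-targeting control siRNA (3 libraries) and the other with an siRNA against Dia2 at 50 nM (3 libraries), and RNA was taken 24 h after the medium had been changed. Dia2 is a formin, a protein that builds straight actin filaments, and is the product of Diaph3 (Diap3 in the table). Only 1 siRNA sequence against Dia2 was used, so effects of lowering Dia2 and any other effects of that sequence cannot be told apart. Whether the 3 libraries of each group are separate cultures is not stated in the labels, so the p-values describe library-to-library spread, which may be technical. Values listed per group are in the order of replicates 1, 2 and 3.

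Complement is a set of plasma and membrane proteins that mark particles for removal and can open pores in membranes. In the classical pathway C1q binds a target and activates the proteases C1r and C1s, which cleave C4 and C2 to form an enzyme that cleaves C3, and in the alternative pathway factor B (Cfb), cut by factor D (Cfd), forms another C3-cleaving enzyme with C3 itself. Cd55 speeds the decay of these enzymes and Cd59 stops the final pore. The liver makes most plasma complement, and stromal cells are known as a local source of several components.

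Total counts ranged from 70538768 to 110006338 per library. Every count was even, as if each fragment added 2, so a floor of 6 counts was used, equal to 0.0545 to 0.0851 CPM (counts scaled to library size), which covers counting error only. The ribosomal precursor Rn45s took 6.0% to 11.7% of the counts and was richest in control replicate 3 and Dia2 replicate 1. Diap3 stood at 80.1 to 84.8 CPM in the control libraries and at 7.39 to 8.37 CPM in the Dia2 libraries. Among 12 stromal markers Thy1 was near absent, at no more than 10 counts in any library, whereas Itgb1, Cd44, Pdgfra and Pdgfrb were all present. Of the markers of macrophages and liver cells, which also make complement, the defining genes Ptprc (at most 8 counts), Tyrobp (0), Alb (at most 2) and Ttr (0) were at or near 0, but others were present, among them Cd14 at 516 to 1172 counts, Csf1r at 192 to 402 and Cd53 at 40 to 342.

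With Dia2 siRNA the mRNAs of C3, C1s, C1ra and Cd59a rose and that of Cfb fell. C3, the component on which all activation routes converge, rose 3.77-fold from a very low level, C1s 2.34-fold, C1ra 1.71-fold and Cd59a 1.45-fold, while Cfb fell by 0.72 on the log2 scale. C4b and Cfd did not pass the test, and C2 and Cd55 were too scarce to be tested. An adjusted p under 0.05 was required, from edgeR's quasi-likelihood test with Benjamini-Hochberg adjustment over all 14151 genes tested, of which 59.2% passed, 29.3% higher and 29.9% lower. The 5 calls among 7 members tested are read against that 59.2% and are no result about the set as a whole. The groups did not overlap for the same 5 genes, beside 64.6% of all genes tested, 32.3% with Dia2 siRNA above and 32.2% with it below. The median log2 fold change was 0.57 over the 7 members tested and 0.01 over all genes tested. The 0.57 is the value of the scarce Cfd, which did not pass. Most stromal markers moved the same way as C3, C1s, C1ra and Cd59a: of 11 tested out of 12, 10 were higher and 0 lower, beside 29.3% and 29.9% of all genes tested, with Ly6a 3.54-fold, Cxcl12 2.57-fold, Vcam1 2.06-fold and Pdgfrb 1.74-fold higher. Their summed RPKM was 1233 to 1504 in the control and 1916 to 2158 in the Dia2 libraries. Col1a1 alone made up 704 to 958 and 1087 to 1253 of these sums. The part of the stromal markers in the rise of the complement genes was not tested. C3, C1s, C1ra, Cd59a and Cfb passed in all 16 alternative analyses run.

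**Figure D1:**
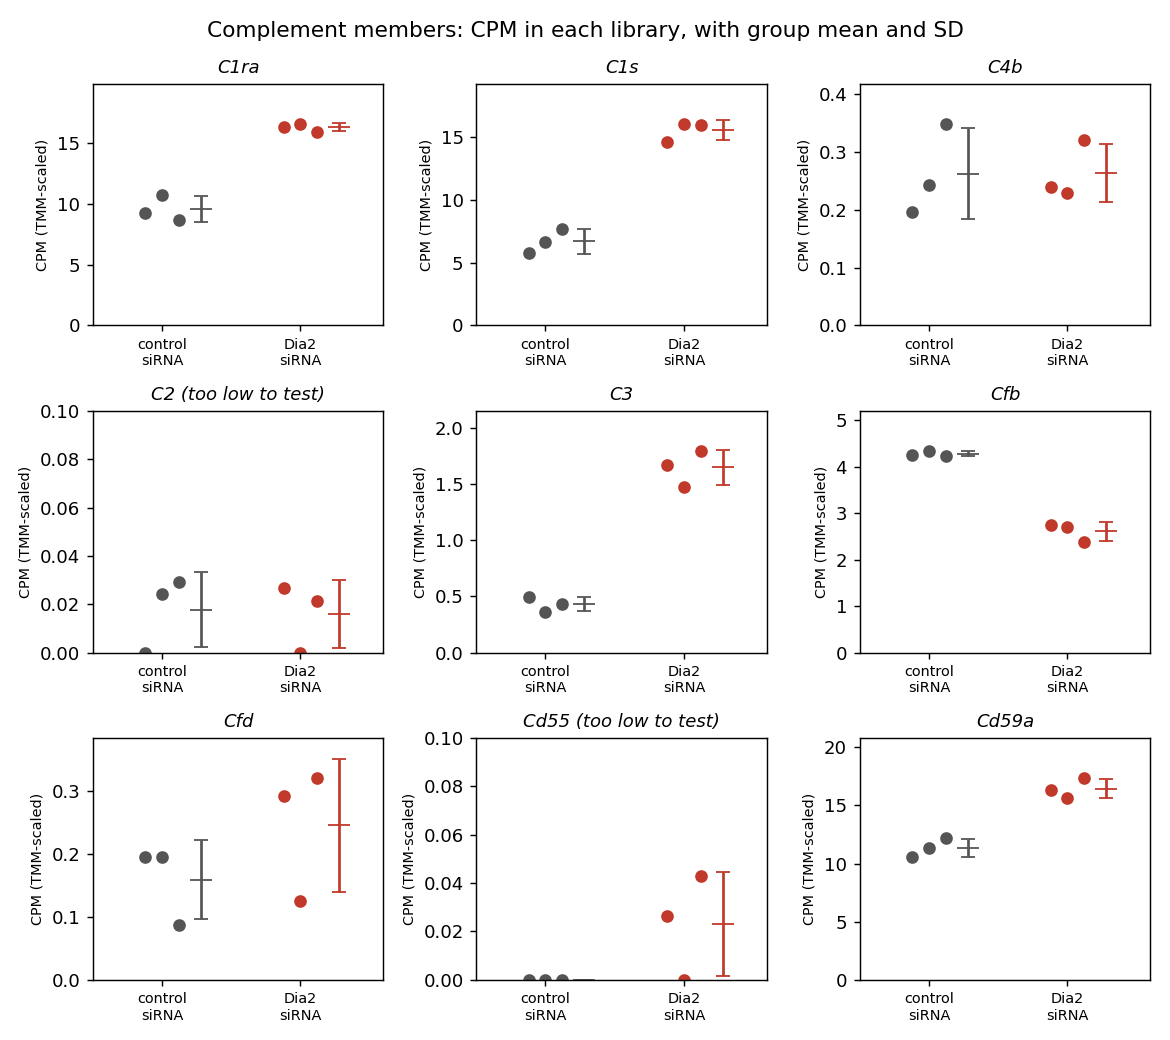
CPM scaled by TMM factors (y axis, linear, starting at 0) of each of the 9 complement genes in the 3 control siRNA and 3 Dia2 siRNA libraries, with 1 point per library and the group mean ± SD as a bar beside the points. The Dia2 libraries lie above all control libraries for C1ra, C1s, C3 and Cd59a, below them for Cfb, and overlap them for C4b and Cfd.

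The sequences just before the start sites of C3, C1s and Cd59a are shown because these genes rose together and their 250 bases before the start hold no annotated exon in GENCODE M21. They are from a set of RefSeq promoter sequences (GRCm38.p6) that held 6 of the 9 genes, C1s under the symbol C1s1. They are written 5′ to 3′ on the strand of the gene. For C1s 2 starts were listed, and only the window of the start nearest its deposited coordinates was searched. Capitals mark matches to any of 8 motifs searched on both strands. The motifs were TATAAA of core promoters, TTGCNNAA of C/EBP factors, TTCNNNGAA of STAT factors and AANNGAAA of interferon regulatory factors (IRF). Further ones were TGANTCA of AP-1, GGGCGG of Sp1, the NF-kappaB consensus and the CArG box of SRF, the factor that responds to actin assembly.
C3 (chr17:57228137-57228386, minus strand): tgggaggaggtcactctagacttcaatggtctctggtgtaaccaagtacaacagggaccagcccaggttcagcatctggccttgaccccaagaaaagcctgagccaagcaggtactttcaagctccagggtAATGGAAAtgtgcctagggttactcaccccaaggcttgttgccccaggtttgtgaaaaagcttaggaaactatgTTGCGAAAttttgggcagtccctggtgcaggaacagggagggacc
C1s (chr6:124542360-124542609, minus strand): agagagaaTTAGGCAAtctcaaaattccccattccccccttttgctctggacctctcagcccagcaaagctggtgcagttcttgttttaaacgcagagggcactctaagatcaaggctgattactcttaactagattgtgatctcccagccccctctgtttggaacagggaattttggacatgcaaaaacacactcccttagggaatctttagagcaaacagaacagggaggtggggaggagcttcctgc
Cd59a (chr2:104095551-104095800, plus strand): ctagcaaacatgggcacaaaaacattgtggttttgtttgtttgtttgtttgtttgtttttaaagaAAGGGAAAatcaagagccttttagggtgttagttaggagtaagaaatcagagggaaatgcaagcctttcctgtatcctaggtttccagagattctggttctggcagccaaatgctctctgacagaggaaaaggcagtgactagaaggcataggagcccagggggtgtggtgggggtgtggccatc
C3 held 1 C/EBP match at -45 to -38 from its start and 1 IRF match at -119 to -112, and C1s held 1 C/EBP match at -242 to -235, on the opposite strand. Cd59a held 1 IRF match at -185 to -178. A C/EBP match occurs in 9.56% of 32851 mouse promoter windows of this length and an IRF match in 21.3%. None of the 3 windows held the CArG box, present in 1.47% of all windows, or the NF-kappaB consensus, present in 7.25%. The window of C1ra held none of the 8 motifs and is not printed, because 216 of its 250 bases lie in annotated exons of GENCODE M21. These matches describe letters only.

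The proteases of the C1 complex were the most abundant activating components among the 9 genes. C1ra, which encodes the protease that activates itself and then C1s (chromosome 6, 124512621 to 124523440, GRCm38), measured 9.19, 10.7 and 8.68 CPM with control siRNA against 16.3, 16.5 and 15.9 CPM with Dia2 siRNA. All Dia2 libraries were above all control libraries, and the Dia2 libraries lay closer together than the control libraries. Group means were 9.53 ± 1.06 and 16.3 ± 0.323 CPM (SD over n = 3 libraries), with a log2 fold change of 0.77 ± 0.08 (SE; edgeR adjusted p = 4.62e-06). C1s, whose product cleaves C4 and C2 (chromosome 6, 124530344 to 124542359), measured 5.73, 6.65 and 7.66 CPM with control siRNA against 14.6, 16.0 and 15.9 CPM with Dia2 siRNA. Its lowest Dia2 library was well above its highest control library. Its means were 6.68 ± 0.964 and 15.5 ± 0.802 CPM (SD over n = 3 libraries), a rise of 1.23 ± 0.10 on the log2 scale (SE; edgeR adjusted p = 4.96e-07).

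C1ra and C1s are neighbours that point towards each other, with 6903 bases between them. Per length, as deposited RPKM, C1s reached 0.577, 0.574 and 0.817 of the level of C1ra with control siRNA and 0.827, 0.896 and 0.928 of it with Dia2 siRNA. The ratio was thus higher in every Dia2 library, although control replicate 3 came close to Dia2 replicate 1. Its mean was 0.656 ± 0.139 and 0.884 ± 0.0514 (SD, n = 3 each; exact permutation test, two-sided, p = 0.10, adjusted over 2 ratios 0.10, the smallest p that 3 against 3 libraries allow).

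Both genes have close copies next to them, which limits what their counts mean. Of the 50-base windows of the C1ra transcripts 48% also occur in C1rb, and of those of C1s 21.8% occur in C1s2. No source used here says how reads with several matches were counted. C1rb itself had 0, 2 and 2 counts with control siRNA and 10, 18 and 10 with Dia2 siRNA and was not tested. C1s2, which the table lists under an older symbol, had 18, 2 and 6 counts against 20, 14 and 10 and did not pass (log2 fold change 0.81 ± 0.60, edgeR adjusted p = 0.27). Exons of C1s also overlap an antisense gene, Gm16567, over 18.4% of their bases, so without strand information these reads cannot be told apart.

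C4b and C2, the substrates of C1s that form the classical C3-cleaving enzyme, were scarce. C4b (chromosome 17, 34728381 to 34743897) had 22, 20 and 24 counts with control siRNA and 18, 22 and 30 with Dia2 siRNA. The groups overlapped, and the log2 fold change was 0.04 ± 0.36 (SE; edgeR adjusted p = 0.935), so a moderate change in either direction would not have been detectable at this depth. C4b shares 34.6% of its 50-base windows with its copy C4a, which did not pass either, at 20, 32 and 26 counts against 40, 18 and 44. C2 (chromosome 17, 34862602 to 34882100) had at most 2 counts in any library, below the floor of 6. C1ra at 16.3 CPM with Dia2 siRNA thus stood beside C4b at 0.263 CPM and C2 under the floor.

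C3 (chromosome 17, 57203973 to 57228136) had 56, 30 and 30 counts with control siRNA and 126, 142 and 168 with Dia2 siRNA. These correspond to 0.498, 0.365 and 0.435 CPM and to 1.67, 1.48 and 1.80 CPM, so the groups did not overlap and every library was above the floor. Group means were 0.433 ± 0.0667 and 1.65 ± 0.16 CPM (SD over n = 3 libraries), with a log2 fold change of 1.91 ± 0.21 (SE; edgeR adjusted p = 6.92e-06). None of its 50-base windows occur in transcripts of another gene. Even with Dia2 siRNA its level per length, 0.267 ± 0.0304 RPKM, was far under the 4.89 ± 0.188 RPKM of C1ra. The genes whose log2 CPM followed C3 most closely over the 6 libraries were Ptprz1, Lims2 and Nup155, each with a Pearson r of 0.999. This describes mainly the split into 2 groups, since 2341 of 10235 genes had an r above 0.9.

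Cfb, which encodes the protease subunit of the alternative C3-cleaving enzyme (chromosome 17, 34856374 to 34862514), moved opposite to C3, C1s, C1ra and Cd59a. It measured 4.25, 4.33 and 4.24 CPM with control siRNA against 2.74, 2.71 and 2.37 CPM with Dia2 siRNA. The control libraries were almost identical, and every Dia2 library was below them. Means were 4.28 ± 0.052 and 2.61 ± 0.203 CPM (SD over n = 3 libraries; log2 fold change -0.72 ± 0.11, SE; edgeR adjusted p = 0.000104). Per length Cfb exceeded C3 by 15.9- to 22.2-fold in the control libraries and by 2.47- to 3.42-fold in the Dia2 libraries, a mean ratio of 18.8 ± 3.15 and 2.98 ± 0.48 (SD, n = 3 each; exact permutation test, two-sided, p = 0.10, adjusted over 2 ratios 0.10). Cfb lies 87 bases from C2, and GENCODE M21 holds a protein-coding gene, Gm20547, that runs over both and covers 79.5% of the exon bases of Cfb. That gene has no row in the table, and no source used here says how reads shared with it were counted.

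Cfd, the factor D that cuts factor B and is also known as adipsin because fat cells make it (chromosome 10, 79890853 to 79892656), was scarce. In control replicate 3 it was at the floor. It had 22, 16 and 6 counts with control siRNA and 22, 12 and 30 with Dia2 siRNA, and the groups overlapped (log2 fold change 0.57 ± 0.46, SE; edgeR adjusted p = 0.317). Of 8 markers of fat cells, 6 were tested, 0 were higher and 4 lower, beside 29.9% of all genes tested: Fabp4 (-1.11), Lpl (-0.86), Pparg (-0.57) and the scarce Cidec (-1.99), on the log2 scale. The other two did not pass, with Adipoq, the adiponectin gene, at 0.28 ± 0.13 (edgeR adjusted p = 0.0768) and every Dia2 library above the controls, and Plin1 at 0.51 ± 0.41 (edgeR adjusted p = 0.317). The summed RPKM of the 8 markers was 256 to 269 in the control libraries and 132 to 146 in the Dia2 libraries, of which Lpl alone made up 149 to 163 and 78.5 to 88.0, and Lep had 0 counts throughout. In RNA from whole cultures fewer cells of a type and less RNA per cell cannot be told apart.

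The membrane regulators among the 9 genes differed widely in level. Cd59a, which encodes the inhibitor of the membrane pore (chromosome 2, 104095801 to 104115351), measured 10.6, 11.3 and 12.2 CPM with control siRNA against 16.3, 15.7 and 17.3 CPM with Dia2 siRNA, with no overlap. Group means were 11.4 ± 0.782 and 16.4 ± 0.84 CPM (SD over n = 3 libraries; log2 fold change 0.54 ± 0.07, SE; edgeR adjusted p = 3.67e-05). Its paralog Cd59b, which shares 3.87% of the 50-base windows of Cd59a, was scarce at 8 to 24 counts and did not pass (0.13 ± 0.46, edgeR adjusted p = 0.821). Cd55 (chromosome 1, 130439030 to 130462740) had 0 counts in every control library and 2, 0 and 4 counts in the Dia2 libraries, all below the floor, and its paralog Cd55b had 2 counts in 1 library. Decay-accelerating factor mRNA was therefore not detectable at this depth in either group.

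Per length the order of the 9 genes in the control libraries was Cd59a (5.35 ± 0.218 RPKM), C1ra (2.95 ± 0.428), C1s (1.90 ± 0.209), Cfb (1.33 ± 0.0683), Cfd (0.149 ± 0.0626), C3 (0.0719 ± 0.0114) and C4b (0.0412 ± 0.0105; SD, n = 3 each), with C2 and Cd55 last. Ranges of neighbouring genes overlapped for Cfd and C3 and for C2 and Cd55, and no others did. In the Dia2 libraries Cd59a, C1ra, C1s and Cfb kept ranks 1 to 4, and C3 and Cfd overlapped again.

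**Figure D2:**
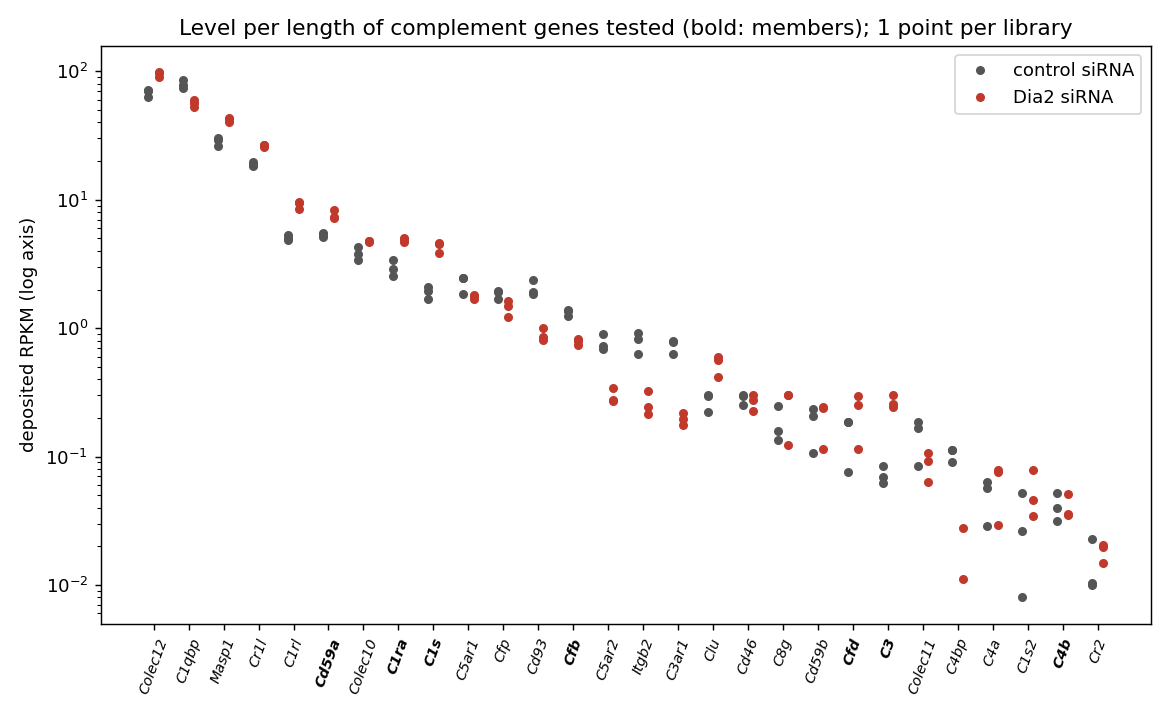
Deposited RPKM (y axis, log scale) of the 28 complement genes that passed the filter, with 1 point per library in each siRNA group and the 9-gene set in bold on the x axis; 1 library value of 0 is not drawn. Cd59a, C1ra and C1s lie above 1 RPKM in every library, and C3 and C4b below it.

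Other genes of the pathway were taken from lists by role, which were drawn up with earlier results of these data known. Of the 47 genes listed 21 were tested, 6 were higher and 8 lower, beside 29.3% and 29.9% of all genes tested. Their median log2 fold change was 0.13 against 0.01 over all genes tested, and 8 genes had 0 counts throughout. The 0.13 is the value of the scarce Cd59b, which did not pass. Among 12 genes of target recognition, C1qa, C1qb and C1qc, the subunits that would carry C1r and C1s, had 0 counts in all 6 libraries, at or under the floor of 0.0545 to 0.0851 CPM. Of the 4 recognition genes tested 3 rose, beside 29.3% of all genes tested. Masp1, a protease of the lectin pathway, rose 1.51-fold, with means of 92.1 ± 2.74 and 139 ± 0.343 CPM (SD over n = 3 libraries; edgeR adjusted p = 2.36e-07), and the collectin genes Colec12 and Colec10 rose at 0.52 ± 0.06 and 0.35 ± 0.10 on the log2 scale. The other recognition gene tested, the scarce collectin gene Colec11, pointed lower and did not pass (-0.72 ± 0.42, edgeR adjusted p = 0.162). The lectin genes Mbl1 and Fcnb had 0 counts in all libraries.

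C1rl, a protease related to C1r, rose 1.86-fold, with means of 17.9 ± 1.04 and 33.2 ± 0.728 CPM (SD over n = 3 libraries; edgeR adjusted p = 1.81e-07). It rose beside C1ra, and its lowest Dia2 library, at 32.4 CPM, was above its highest control library, at 18.7 CPM. Cfp, which encodes properdin, the stabiliser of the alternative C3-cleaving enzyme, fell with Cfb but less (-0.32 ± 0.13, edgeR adjusted p = 0.0446), and lost its call without Dia2 replicate 2 (-0.21, adjusted p = 0.203) and under 6 other settings. Of 7 genes of the terminal pathway C8g was the only 1 tested, and it did not pass (0.50 ± 0.43, edgeR adjusted p = 0.348). Hc, the mouse gene for C5, had 2 to 10 counts, and C6, C7, C8a, C8b and C9 had at most 4.

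Of 6 further fluid-phase and membrane regulators tested 2 were higher and 2 lower, close to the 29.3% and 29.9% of all genes tested. Cr1l (Crry), the rodent membrane regulator that acts on C3 and C4 products, stood at 37.4, 35.0 and 38.3 CPM against 53.7, 53.0 and 51.1 CPM and rose 1.43-fold (edgeR adjusted p = 6.32e-06). Cr1l and Cd59a, the membrane regulators found at over 10 CPM, were thus both higher in every Dia2 library than in any control library. Clu, the chaperone clusterin, rose 2.01-fold from 0.58 ± 0.105 to 1.15 ± 0.172 CPM, C1qbp, a mainly mitochondrial protein able to bind C1q, fell (-0.45 ± 0.05), and C4bp was scarce, with 22, 20 and 18 counts against 2, 6 and 0 (edgeR adjusted p = 0.00241). Serping1, the inhibitor of C1r and C1s, had 2, 2 and 0 counts with control siRNA and 2, 4 and 12 with Dia2 siRNA and was not tested.

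Of 6 receptors tested 0 were higher and 5 lower, beside 29.9% of all genes tested. C3ar1, the receptor for the C3a fragment, measured 3.92, 3.82 and 3.31 CPM with control siRNA against 1.20, 0.896 and 0.983 CPM with Dia2 siRNA, a 3.62-fold fall (log2 fold change -1.86 ± 0.15, SE; edgeR adjusted p = 5.4e-07). C3ar1 thus moved opposite to C3. C5ar2, a C5a receptor listed under an older symbol, fell 2.51-fold, the integrin subunit gene Itgb2, whose product forms complement receptors with Itgam or Itgax, 2.97-fold, and Cd93, a membrane protein related to C1q receptors, 2.26-fold. The partner Itgam had 0, 2 and 0 counts with control siRNA and 10, 6 and 6 with Dia2 siRNA. Itgax had at most 4 counts in any library, and neither partner was tested. C5ar1, the main C5a receptor, changed least of the 5 (-0.32 ± 0.10, edgeR adjusted p = 0.0196), with overlapping groups, and did not pass when control replicate 1 or 2, or Dia2 replicate 2 or 3, was left out (adjusted p = 0.0587 to 0.0848). Markers of macrophages, which carry these receptors, were mixed: of 5 tested out of 10, 0 were higher and 3 lower (Cd53, Cd68 and Cd14), beside 29.9% of all genes tested. Csf1r (0.03 ± 0.17, edgeR adjusted p = 0.877) and Lyz2 (0.48 ± 0.23, edgeR adjusted p = 0.0935) did not pass. The markers' summed RPKM was 8.80 to 10.4 in the control and 5.61 to 6.70 in the Dia2 libraries. Cd14 alone made up 5.20 to 6.07 and 3.54 to 4.14 of these sums. The defining macrophage genes Ptprc, Adgre1, Aif1 and Tyrobp had at most 8 counts in any library. The part of such cells in the fall of the receptors was not tested.

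**Figure D3:**
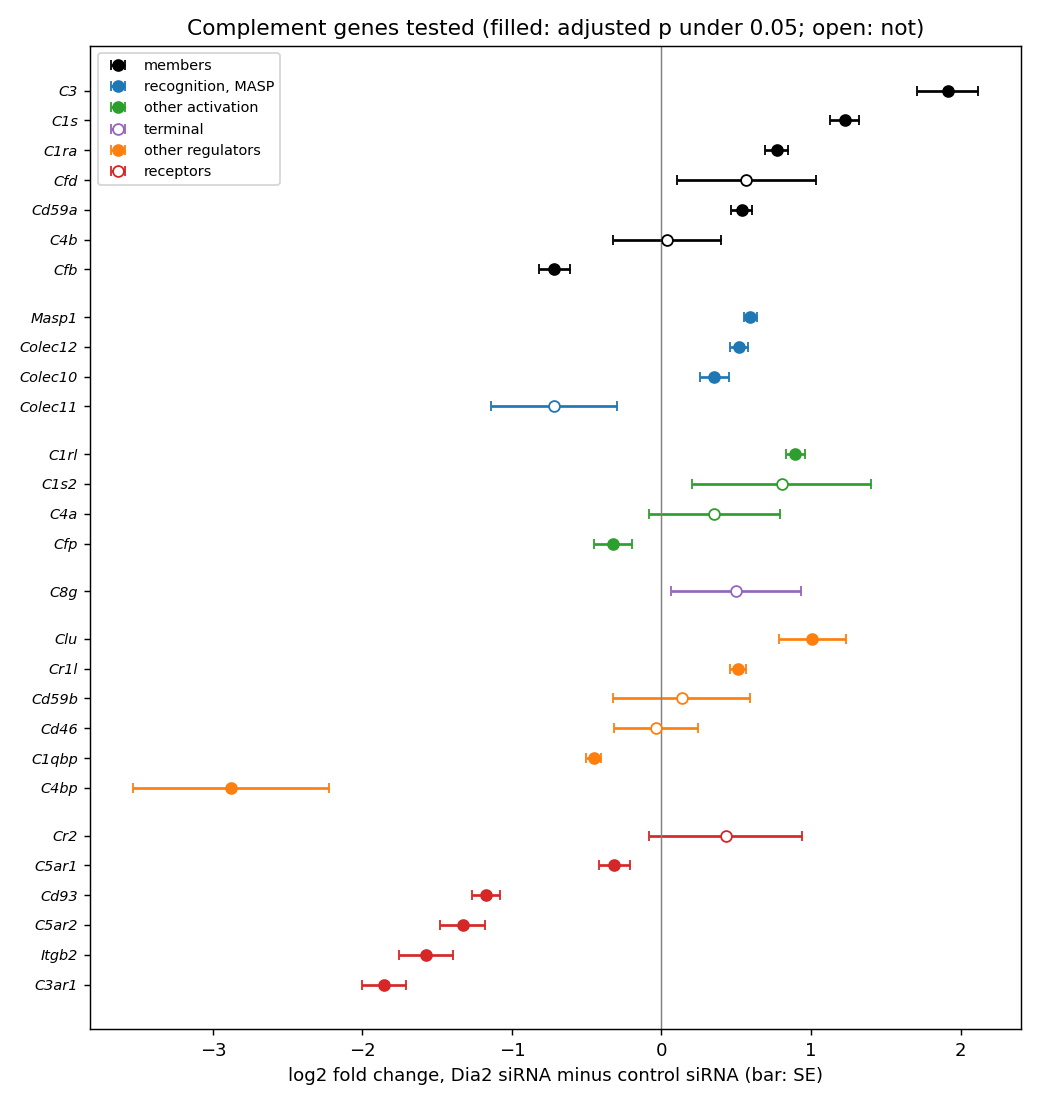
Log2 fold change with Dia2 siRNA against control siRNA (x axis; bars, SE) of the 28 complement genes tested, grouped by role, with filled symbols for an adjusted p under 0.05. C3, C1s and C1ra lie furthest right among the 9-gene set (black), Cfb lies left of 0, and 5 of 6 receptors (red) lie left of 0 with filled symbols.

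Known inducers of complement genes were also followed. Of 17 cytokines and transcription factors 12 were tested, 1 was higher and 3 lower, beside 29.3% and 29.9% of all genes tested. Cebpa, a C/EBP factor, was lower (-0.26 ± 0.04, edgeR adjusted p = 0.000179), while Cebpb and Cebpd did not pass, at -0.16 ± 0.07 and -0.14 ± 0.08. Il6, an inducer of C3 in liver cells, had 48, 38 and 36 counts with control siRNA and 2, 12 and 6 with Dia2 siRNA (-2.62 ± 0.44, edgeR adjusted p = 0.000265), and Nr1h4, a scarce nuclear receptor gene, was higher (1.70 ± 0.51); both are named after their values were seen, because few genes were called. Rela, an NF-kappaB subunit gene, was lower with overlapping groups (-0.15 ± 0.06, edgeR adjusted p = 0.0413), and lost its call under several settings, among them without control replicate 2 (-0.12, adjusted p = 0.139). The interferon gene Ifng and Il1b had 0 counts in all libraries, and Tnf had at most 14.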

How the data were processed

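The deposited table holds gene counts and RPKM values of 6 libraries, per the file headers. The submitters' processing notes name bcl2fastq, TopHat2 2.0.6, HTSeq and human builds. The table holds mouse genes, and 99.4% of 20735 symbols shared with RefSeq overlapped that gene in GRCm38.p6, so coordinates were read as GRCm38. No source used here states the annotation, the strand setting or the treatment of multiply matching reads. The deposited RPKM values equal count over length and 1 total per library, and served only to compare levels between genes.

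Counts were filtered with filterByExpr, normalised by TMM and tested with edgeR 4.0.16 (R 4.3.3, quasi-likelihood, robust, no covariate). The filter required the CPM equal to 10 counts at the median library size in at least 3 libraries, and 15 counts in total. The SE is the absolute log2 fold change over the square root of F. The fit was tested on simulated data. Alternatives were other scalings and filters, DESeq2 1.42.0, limma-voom (limma 3.58.1), a replicate block and each library left out, and, added later, halved counts and leaving out both libraries rich in Rn45s (control replicate 3 and Dia2 replicate 1). Named were the 9 genes, Diaph3, 7 pathway genes by role, up to 4 called genes per list with a mean CPM of at least 1, and the 3 genes most like C3 with a mean CPM of at least 2. Others are given to describe their list. Some genes of the lists are not reported here, and the lists' counts leave them out. The genes and lists were chosen with earlier results of these data known. Replicates of a group differed beyond sampling noise, with chi-square per degree of freedom from 6.7 to 85.18. Control replicate 3 stood furthest from its group (85.18 and 77.27 against replicates 1 and 2). Dia2 replicate 1 differed by 30.53 and 56.59 from replicates 2 and 3, which differed from each other by 9.94. All 6 libraries were kept.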

Additional observations from a re-analysis of the deposited data

How the results depend on the processing

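In the main fit 7 of the 9 complement genes were tested. All 16 alternatives called 4 higher and 1 lower, each time C1ra, C1s, C3 and Cd59a higher and Cfb lower. Their log2 fold changes ranged from 0.71 to 0.86 for C1ra, 1.11 to 1.37 for C1s, 1.80 to 2.04 for C3, 0.48 to 0.59 for Cd59a and -0.76 to -0.66 for Cfb. The count over all genes ranged from 7343 to 9193, that of other complement genes from 5 to 8 higher and from 6 to 8 lower. The share of all genes called moved with the filter. In the main fit 8380 of 14151 genes tested (59.2%) were called, and 8340 of 18500 with no filter beyond 1 count. With a mean CPM of at least 1 it was 7747 of 11664. The steady calls are read beside these shares and are no result about the set as a whole. Of 668 values of named genes compared, 646 kept their status, called or, as for C4b and Cfd, not called. The call was lost in 22, all of C5ar1, Cfp, Rela, Tnxb or Ptx3, and 0 reversed. Same-numbered libraries did not deviate together (correlations -0.102, -0.024 and -0.239), so the numbers gave no sign of pairing. With so few libraries per group this check cannot exclude it. With the replicate number as a block 7772 of 14151 genes tested passed in place of 8380, and 4 complement genes were higher and 1 lower. Depth limits C2, Cd55, C4b, Cfd and most recognition and terminal genes. C2, Cd55 and most of the recognition and terminal genes lay near or under the floor of 6 counts. C4b had 18 to 30 counts and Cfd 6 to 30.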

Other observations

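Acute-phase and related genes, only some of which the liver makes together with complement in inflammation, were mostly silent in these cells. Of 15 genes 5 were tested, 3 were higher and 0 lower, beside 29.3% and 29.9% of all genes tested. Ptx3, the long pentraxin able to bind C1q, measured 19.0, 12.7 and 16.4 CPM with control siRNA against 29.3, 28.8 and 27.6 CPM with Dia2 siRNA and rose 1.78-fold (edgeR adjusted p = 4.86e-05), although it lost its call without control replicate 3 and Dia2 replicate 1, the libraries richest in Rn45s (log2 fold change 0.82, adjusted p = 0.116). The copper carrier ceruloplasmin (Cp) rose 1.29-fold and the scarce Serpina3g 1.58-fold. The haptoglobin gene Hp, at 42.8 and 45.1 RPKM on average, did not pass (0.11 ± 0.05, edgeR adjusted p = 0.0912). Saa2, Apcs and Fgb had 0 counts in all libraries.

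C2, Cfb and C4b lie in the class III region of the major histocompatibility complex on chromosome 17. Of 11 other genes of that stretch 9 were tested, 2 were higher and 4 lower, so that 6 of 9 were called beside 59.2% of all genes tested. The histone methyltransferase gene Ehmt2 fell 1.35-fold, Nelfe 1.30-fold, Atf6b 1.27-fold and Stk19 1.13-fold, while the matrix glycoprotein gene Tnxb rose 1.34-fold and Dxo 1.13-fold. Tnxb lost its call without control replicate 1 (adjusted p = 0.0724) or Dia2 replicate 2 (adjusted p = 0.0648). Cfb, at 1.64-fold lower, stood beyond each of these 6 changes, which was not tested as a difference.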
